A study of Mus musculus with 3 samples.

Results

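The 55 mouse genes described here code for core parts and regulators of the machinery that splices introns out of pre-mRNA. They were taken by symbol from the 31053 features of the count tables: every gene whose symbol starts with Srsf, Hnrnp, Sf3a, Sf3b, Snrp or U2af, leaving out -ps pseudogenes. By role they are 11 SR proteins, 20 hnRNP proteins, 9 SF3A or SF3B subunits, 12 Sm or other snRNP proteins and 3 U2AF genes. The rule used symbols and no measured value, but the gene families were proposed with earlier results of these data known. Their mRNA was counted as UMIs at the 3' end of transcripts, cell by cell in droplets (10x Genomics Chromium), in sorted CD8 T cells of C57BL/6 mice labelled wild type. P14 cells carry a transgenic T cell receptor for a peptide of the LCMV glycoprotein, so all the libraries hold T cells of that specificity. The TdLN library (tumour-draining lymph node) and the PBMC library (blood) came from mice given B16.Gp melanoma cells, B16.F10 cells that express that glycoprotein. Naive P14 cells of a TCF-1-GFP reporter strain were transferred 8 days after the tumour cells. They were taken back on day 16 and sorted for CD45.1+ and CD44+. The memory library holds P14 cells taken on day 200 of an acute LCMV infection and sorted by markers that included CD45.1+, CD44+, KLRG1- and CD127+. The hosts keep their own T cells, and CD45.1 was the sort marker in all of these groups. The labels do not say which tissue the memory cells came from, or how many mice went into a library.

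Each group is 1 library, so the differences below have no replicate check, and no p-value is given. Intervals are exact 95% intervals and cover counting error only, since cells of 1 library are not replicates.

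Splicing begins when the U1 snRNP binds the 5' splice site and U2AF binds the 3' splice site, after which the U2 snRNP, with its SF3A and SF3B complexes, settles on the branch point. The Sm proteins form the ring at the core of the U1, U2, U4 and U5 snRNPs. SR proteins mostly bind exons and favour their inclusion, while many hnRNP proteins oppose it, and T cells use both to switch isoforms such as those of CD45 after activation. The counts below are of the mRNAs of these factors. Counted at the 3' end, they do not show which isoforms the cells made.

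Upstream sequence is shown for 4 members with some of the highest ratios of cycling over quiescent cells (Srsf3, Srsf7, Hnrnpab and Snrpa) and for Srsf5, which had the lowest. Cycling cells are those with UMIs of several division genes, and quiescent cells those with none. Each run is the 250 bases before the transcription start in RefSeq (GRCm38.p6), read 5' to 3' on the gene's strand. The windows lie at chr17:29032410-29032659, plus strand, for Srsf3, chr17:80207306-80207555, minus strand, for Srsf7, chr11:51606882-51607131, minus strand, for Hnrnpab, chr7:27196272-27196521, minus strand, for Snrpa, and chr12:80945249-80945498, plus strand, for Srsf5. Capitals mark matches, on either strand, to 5 motifs: a CCAAT box (CCAAT), an E-box (CACGTG), an ETS core (CCGGAAG), an E2F site (TTTCCCGC, TTTCGCGC, TTTGCCGC or TTTGGCGC) and a CRE (TGACGTCA or TGACGTAA).
Srsf3: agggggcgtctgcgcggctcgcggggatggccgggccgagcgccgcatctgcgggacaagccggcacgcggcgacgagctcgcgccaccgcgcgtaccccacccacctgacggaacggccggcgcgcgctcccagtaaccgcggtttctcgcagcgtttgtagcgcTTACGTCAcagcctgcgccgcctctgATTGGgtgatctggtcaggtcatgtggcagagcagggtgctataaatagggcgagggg
Srsf7: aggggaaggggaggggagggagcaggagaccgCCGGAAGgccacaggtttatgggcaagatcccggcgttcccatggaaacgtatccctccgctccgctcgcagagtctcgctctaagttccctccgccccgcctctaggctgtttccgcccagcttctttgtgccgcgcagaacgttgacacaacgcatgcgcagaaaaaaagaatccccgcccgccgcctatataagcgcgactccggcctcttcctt
Hnrnpab: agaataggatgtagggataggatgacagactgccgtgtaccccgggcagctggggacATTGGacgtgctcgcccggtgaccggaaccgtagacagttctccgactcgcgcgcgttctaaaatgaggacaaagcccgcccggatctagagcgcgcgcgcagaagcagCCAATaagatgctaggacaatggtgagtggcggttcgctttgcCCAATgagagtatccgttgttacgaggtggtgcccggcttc
Snrpa: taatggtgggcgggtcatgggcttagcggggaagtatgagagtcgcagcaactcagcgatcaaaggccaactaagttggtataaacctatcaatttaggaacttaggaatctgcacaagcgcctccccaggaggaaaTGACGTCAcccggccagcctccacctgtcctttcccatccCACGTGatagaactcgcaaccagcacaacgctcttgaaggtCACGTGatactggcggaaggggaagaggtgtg
Srsf5: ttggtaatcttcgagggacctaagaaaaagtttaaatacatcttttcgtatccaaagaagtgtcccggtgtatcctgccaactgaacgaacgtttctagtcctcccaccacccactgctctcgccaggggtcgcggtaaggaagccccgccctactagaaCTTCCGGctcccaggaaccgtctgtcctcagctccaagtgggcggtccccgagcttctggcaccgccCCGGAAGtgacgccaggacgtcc
Srsf3 held 1 CCAAT box and 1 CRE, Srsf7 held 1 ETS core, Hnrnpab held 3 CCAAT boxes, Snrpa held 2 E-boxes and 1 CRE, and Srsf5 held 2 ETS cores. The RefSeq table had an entry for 48 members. An ETS core lay in the window of 15 of those 48 (31.25%), against 18.2% of the 4028 genes with an entry that could be compared in cycling cells and 8.52% of all 20595 genes with an entry. A CRE lay in 10.4% of the members, against 4.07% of the 4028 genes. An E2F site lay in 8.33% of the members and 4.29% of those genes, a CCAAT box in 43.75% and 36.9%, and an E-box in 6.25% and 9.01%. An ETS core lay in 26.5% of the 34 members at least 1.5-fold higher in TdLN cycling cells. It lay in 54.5% of the other 11 members compared. In the same order, a CRE lay in 11.8% and 9.09%, and an E2F site in 11.8% and 0%. A CCAAT box lay in 47.1% and 45.5%, and an E-box in 8.82% and 0%. These shares describe letters in a window and were not tested.

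The files held 7503, 6165 and 8321 cell barcodes for TdLN, PBMC and memory. After cells with under 500 genes or over 10% mitochondrial counts were left out, 6265, 5652 and 7003 cells stayed, with median UMI counts of 9674, 7085 and 9956. Between 6 and 15 of the kept barcodes were shared by a pair of libraries. All 10 CD8 T cell markers looked for (Cd3e, Cd8a and others) were detected in every library. Markers of B cells and of macrophages or dendritic cells were also present, with sums of 328 and 402 CPM (counts scaled to 1000000) for TdLN, 106 and 119 CPM for PBMC and 258 and 112 CPM for memory; Ms4a1 and C1qa were among the markers at 0 in PBMC. Genes of dissociation stress, such as Fos and Jun, summed to 4592, 3155 and 2873 CPM, and the median share of ribosomal protein genes was 44.4%, 34.3% and 43.2%. The part of these RNAs in the differences below was not tested.

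The share of all UMI counts that fell in the 55 genes was 0.891% for TdLN, 0.766% for PBMC and 0.717% for memory. As CPM these are 8910.3, 7655 and 7170.0. The hnRNP genes contributed 3515, 2905 and 2862 CPM to these sums. Sm and other snRNP genes contributed 2685, 2459.5 and 2315 CPM, and SR genes 1548, 1286 and 1047 CPM. The SF3A and SF3B genes added 983, 863 and 819 CPM, and the U2AF genes 179, 142 and 127 CPM. On this scale every role was highest in TdLN and lowest in memory, but the order was not fixed under other scalings. With TMM scaling, a trimmed-mean correction of the totals, the summed Sm and snRNP genes of TdLN lay at a log2 ratio of -0.01 over PBMC. With ribosomal and mitochondrial counts left out of the totals, the summed hnRNP genes of PBMC lay at -0.03 over memory. Snrpg, a Sm ring protein, was at 712 CPM for TdLN, 700.0 for PBMC and 688 for memory, and hardly differed between them.

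**Figure D1:**
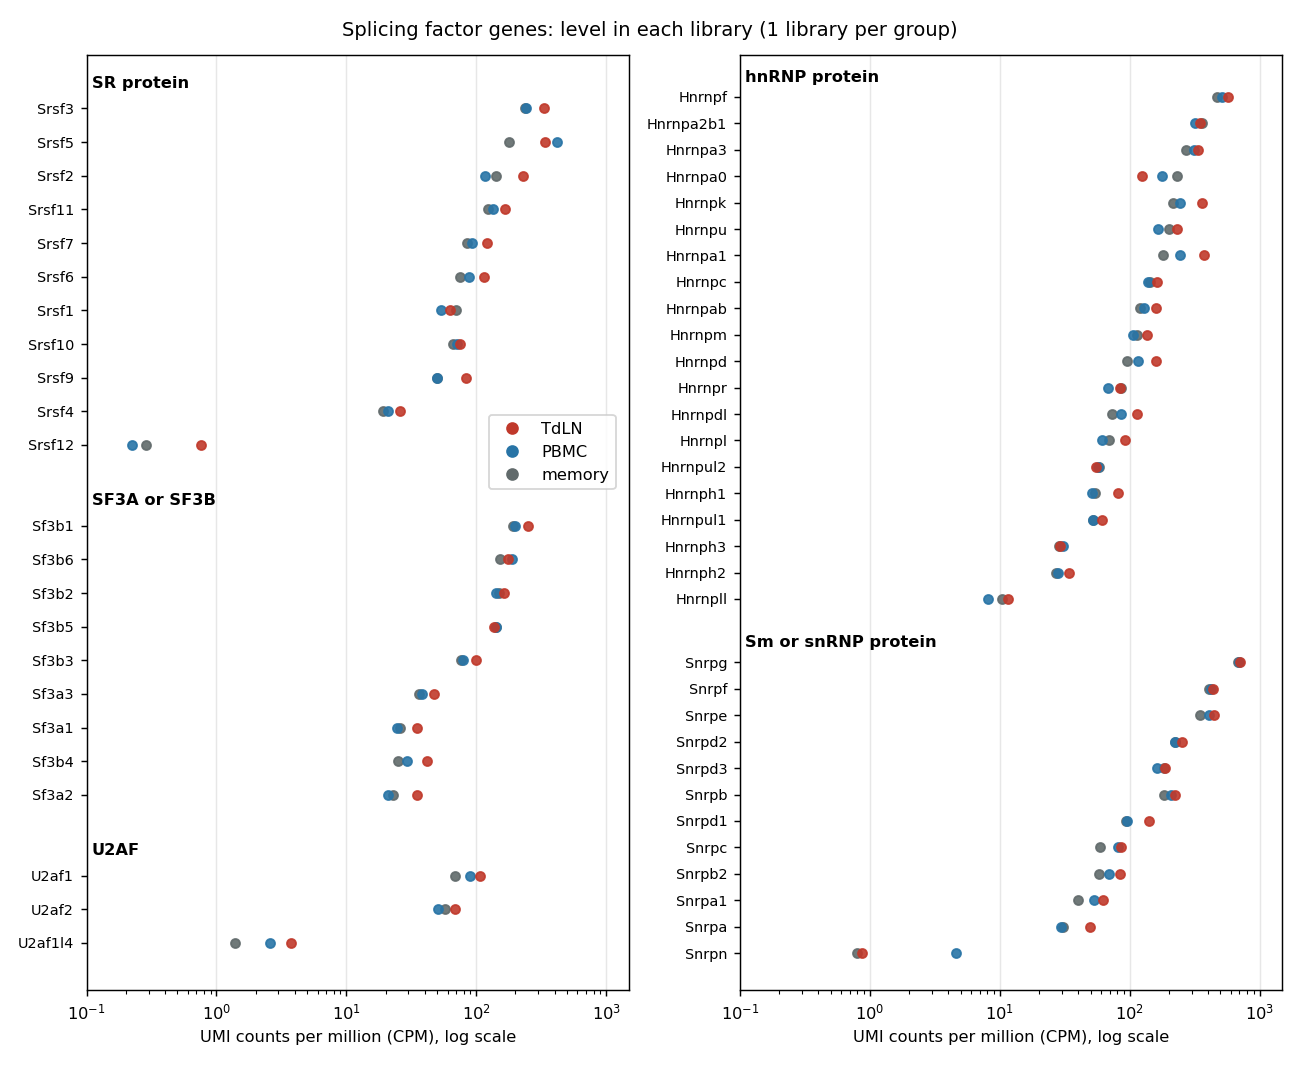
Level of each of the 55 genes in the TdLN, PBMC and memory libraries, in CPM on a log axis, grouped by role; each point is 1 library. TdLN points lie to the right for most genes, Hnrnpa0 runs the other way (123, 176 and 232 CPM), and Srsf5 is highest in PBMC (419 CPM).

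Cells were divided by genes that are not members. Cells were thinned to 4000 UMIs, and the 187, 379 and 240 cells of TdLN, PBMC and memory with fewer were put in no class. Shares of cells below are of all kept cells, these included. A cell was called cycling with at least 3 of 16 division genes (Mki67, Top2a and others). Of the rest, it was receptor-signalled with at least 3 of 12 genes induced through the T cell receptor (Nr4a1, Egr2, Irf4, Tnfrsf9 and others). It was quiescent with none of either list and at least 2 of 6 quiescence genes, with Klf2, Ccr7, S1pr1, Igfbp4 and Il7r among them. Il7r codes for CD127, and the memory sort used markers that this list also holds. TdLN held 277 cycling (4.42%), 265 receptor-signalled (4.23%) and 2285 quiescent cells (36.5%). PBMC held 27, 3 and 2890, and memory held 11, 9 and 4426. These classes are ranges of a count, not cell types. In TdLN, 28 of the cycling cells sat at the cut of 3 genes and 99 cells lay just below it with 2. For the receptor list 184 cells sat at the cut and 662 lay just below. The median TdLN cycling cell had 8 division genes and 2 quiescence genes, the median receptor-signalled cell 3 receptor genes and 3 quiescence genes. A class needed at least 30 cells for counts of members. Cycling and receptor-signalled cells of PBMC and memory were fewer, so counts are given for the classes of TdLN and for the quiescent cells of all libraries, and values in the small classes are set beside them.

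In TdLN, cycling cells gave the splicing factor genes 13911 CPM, receptor-signalled cells 9319 CPM and quiescent cells 7863 CPM. Cell by cell, the median share of UMIs was 1.28% in cycling cells, 0.851% in receptor-signalled cells and 0.782% in quiescent cells. The 27 cycling cells of PBMC had a median of 1.19%, against 0.742% in its quiescent cells. In memory, the 11 cycling cells had a median of 0.999% and the quiescent cells 0.705%. The same order held for UMIs after thinning: the median TdLN cell had 51 member UMIs of 4000 if cycling, 33 if receptor-signalled and 31 if quiescent. Before thinning, the median cycling cell of TdLN had 341 member UMIs and the median quiescent cell 75. Cycling cells were also much deeper, with a median of 27573 UMIs against 9591 in quiescent cells. A smaller part of their UMIs came from ribosomal protein genes (33.7% against 45.6%) and from long nuclear RNAs such as Malat1 (0.384% against 1.36%). The part of depth and of these other RNAs in the higher share was not tested.

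**Figure D2:**
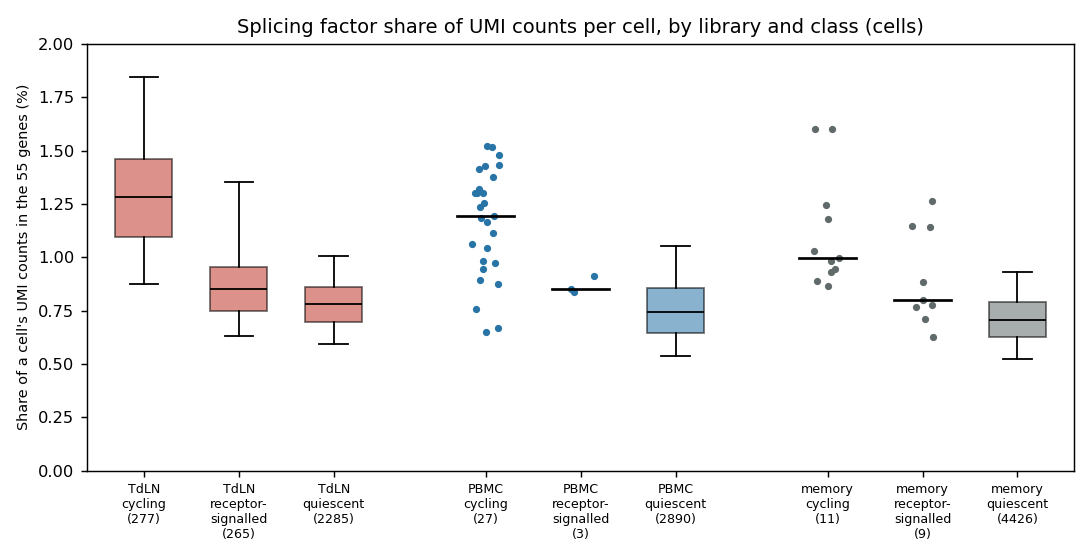
Share of each cell's UMI counts that falls in the 55 genes, in percent, for cycling, receptor-signalled and quiescent cells of TdLN, PBMC and memory, with the number of cells in brackets. Boxes span the quartiles with the median as a line and whiskers from the 5th to the 95th percentile; classes under 30 cells are drawn as single cells. The median is highest in the cycling class of each library (1.28%, 1.19% and 0.999%).

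In the TdLN library, 50 of the 52 members that could be compared were higher in cycling than in quiescent cells, at a median log2 ratio of 0.85. Of all 5027 genes compared, 63.4% were higher in cycling cells, and their median log2 ratio was 0.24. At least 1.5-fold higher were 39 members, and 1 was at least 1.5-fold lower. Of all genes compared, 30.6% were at least 1.5-fold higher and 10.1% at least 1.5-fold lower, 40.7% in all. These shares of all genes also stand beside the counts by role below. A gene was compared with at least 20 CPM and 50 UMIs in the group where it was higher. Snrpn, Srsf12 and U2af1l4 did not reach that, and Hnrnpll reached it only through the cycling cells. With ribosomal and mitochondrial counts left out of the totals, all genes moved by -0.32, 46 members stayed higher, and the members' median was 0.53 against -0.08 for the same genes. Without the 5% of cells with most UMIs, which hold 196 of the 277 cycling cells, 24 of 50 members were at least 1.5-fold apart. The members' median was then 0.54, and 31.4% of all genes compared were at least 1.5-fold apart.

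Among the SR proteins, 9 of 10 were higher in cycling cells, 8 of them at least 1.5-fold. Srsf3, the smallest SR protein, which also aids mRNA export, had 689 CPM in cycling cells of TdLN, 359 CPM in receptor-signalled cells and 265 CPM in quiescent cells. It had 549.7 and 217 CPM in cycling and quiescent cells of PBMC, and 583 and 233 CPM in those of memory. The cycling level was above the quiescent level in all libraries, with intervals that did not overlap. In TdLN the ratio was 2.60 (2.51 to 2.70). Srsf7, an SR protein with a zinc knuckle, was at 261, 149 and 91.7 CPM in cycling, receptor-signalled and quiescent cells of TdLN. Its cycling and quiescent levels were 175 and 85.0 CPM in PBMC and 205 and 82.6 CPM in memory. Srsf2, which binds exonic enhancers, reached 399.5 CPM in cycling cells and 191 CPM in quiescent cells of TdLN. Srsf1, the founding member of the family, had a log2 ratio of 0.90 there, and Srsf9 had 140.2 and 70.5 CPM. Srsf11 differed little, at a log2 ratio of 0.22, which was -0.10 with ribosomal and mitochondrial counts left out of the totals.

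Srsf5, a shuttling SR protein, was the member that ran the other way. It had 215 CPM in cycling cells of TdLN (205 to 225), 373 CPM in receptor-signalled cells and 346 CPM in quiescent cells. In PBMC it had 336 CPM in cycling and 404 CPM in quiescent cells, and in memory 107 CPM and 178 CPM. Cycling cells thus had less Srsf5 than quiescent cells in each library, but in PBMC the interval of the 27 cycling cells (283 to 397 CPM) came close to the quiescent level. The log2 ratio in TdLN was -0.69, and 7.36% of all genes compared had a lower one. It was -0.39, short of 1.5-fold, without the 5% of cells with most UMIs.

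Of the hnRNP genes, all 20 compared were higher in cycling cells of TdLN, 16 of them at least 1.5-fold. Hnrnpll, which is among the 16, was compared only through the cycling cells, so it could only count as higher. With ribosomal and mitochondrial counts left out of the totals, 18 of 20 stayed higher. Hnrnpab, an AU-rich and CArG-box binding protein, had 338 CPM in cycling, 201 CPM in receptor-signalled and 119 CPM in quiescent cells. In PBMC it had 258 and 125 CPM in cycling and quiescent cells, and in memory 297 and 118 CPM. Hnrnpd, known for its part in the decay of AU-rich mRNAs, followed with 326 CPM in cycling cells and 125 CPM in quiescent cells of TdLN. Hnrnpa2b1 had 588 and 301 CPM, Hnrnpu 375 and 199.6 CPM, and Hnrnpk 563 and 318 CPM in those classes. Hnrnpa1, which binds exonic silencers, had 601 CPM in cycling and 329.5 CPM in quiescent cells of TdLN. Hnrnpa1 did not show the same order in memory, where 11 cycling cells gave 148 CPM (99.3 to 213) and quiescent cells 182 CPM. The lowest ratios were those of Hnrnph2 and Hnrnph3, each with a log2 ratio of 0.23 that changed sign with ribosomal and mitochondrial counts left out, then Hnrnpa0 (0.32) and Hnrnpul2 (0.36).

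All 11 Sm and other snRNP genes compared were higher in cycling cells under each scaling tried, 8 of them at least 1.5-fold. Snrpd1, the D1 protein of the Sm ring, had the highest ratio of all members compared. It had 349 CPM in cycling, 146 CPM in receptor-signalled and 101 CPM in quiescent cells of TdLN, a ratio of 3.45 (3.27 to 3.65) for cycling over quiescent. Its cycling and quiescent levels were 296 and 91.1 CPM in PBMC and 322 and 91.6 CPM in memory, so that the quiescent levels of the 3 libraries lay within 10 CPM of each other. The other Sm genes moved less. Snrpe had 786 and 381 CPM in cycling and quiescent cells of TdLN, Snrpb 387 and 189 CPM, and Snrpg 968 and 669 CPM. Ratios thus differed about the ring, with log2 values of 1.79 for Snrpd1, 1.04 for Snrpe and Snrpb, 0.53 for Snrpg and 0.46 for Snrpd3. Snrpa, the A protein of the U1 snRNP, which binds a stem-loop of U1 RNA, had 103 CPM in cycling and 38.3 CPM in quiescent cells. Snrpa1, its relative on U2 RNA, had 123 and 49.3 CPM.

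SF3A and SF3B subunits had a median log2 ratio of 0.71, with 8 of 9 higher and 6 past 1.5-fold. Sf3b6, which sits close to the branch point adenosine, had 279.8 CPM in cycling and 151 CPM in quiescent cells of TdLN. Sf3b1, the large scaffold of SF3B, differed by only 0.21 on the log2 scale, with 281 and 244 CPM, and was at -0.11 with ribosomal and mitochondrial counts left out of the totals. Sf3b3 had 92.0 CPM in cycling and 99.7 CPM in quiescent cells, and its direction turned with the cell filter (log2 ratio -0.12, and 0.16 with cells of 1000 genes or more and 5% mitochondrial counts or less). U2af1, the small subunit that reads the AG at the 3' splice site, had 188 and 88.7 CPM, and U2af2, the large subunit, 91.0 and 63.0 CPM. Ranges over the alternatives were followed for 36 members, the extremes of each comparison and a panel of roles. Of the 28 of these at least 1.5-fold apart in cycling cells, 16 stayed so under each of 12 alternatives in which the fold limit was kept, Srsf3, Srsf7, Hnrnpab, Snrpd1, Snrpa and U2af1 among them.

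**Figure D3:**
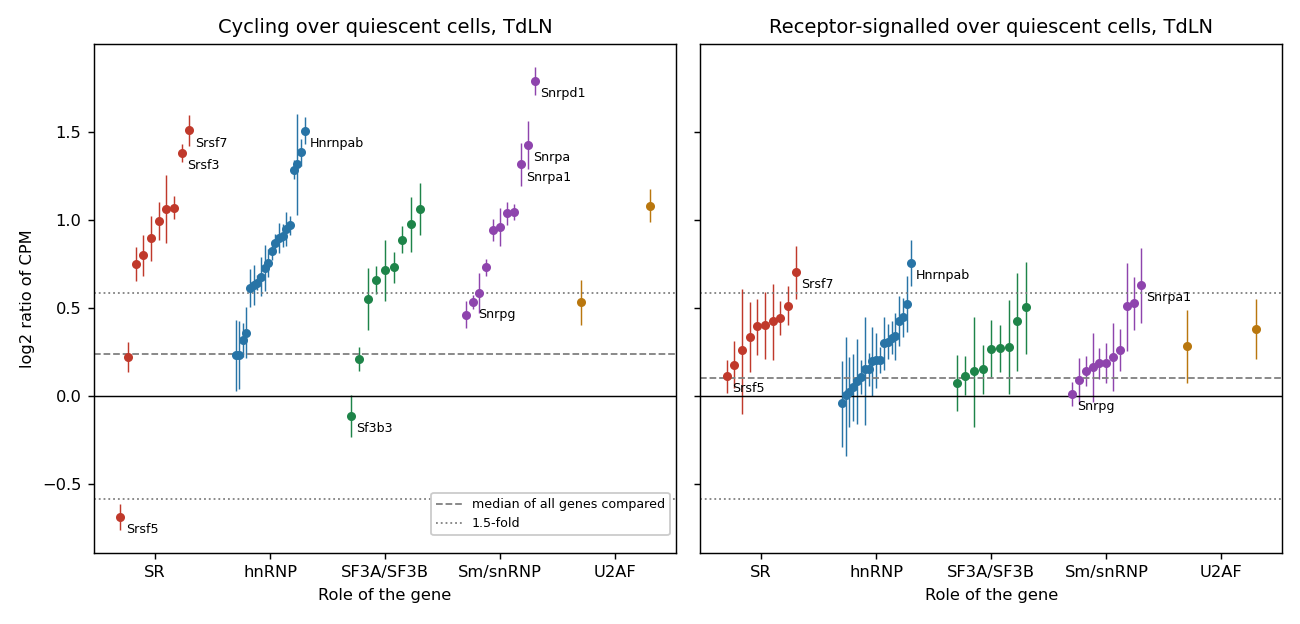
Log2 ratio of CPM for each member compared in TdLN, cycling over quiescent cells on the left and receptor-signalled over quiescent cells on the right, ordered by value within each role; bars are 95% counting intervals, the dashed line is the median of all genes compared and dotted lines mark 1.5-fold. On the left 50 of 52 points lie above 0, from Srsf5 at -0.69 to Snrpd1 at 1.79; on the right 3 points pass 1.5-fold.

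Receptor-signalled cells of TdLN differed from quiescent cells far less. Of 51 members compared, 50 were higher, as were 66.7% of all 4665 genes compared. The median log2 ratio was 0.26 for the members against 0.10 for all genes. Only Hnrnpab, Srsf7 and Snrpa1 were at least 1.5-fold higher, and no member was 1.5-fold lower. Of all genes compared, 6.69% were past that limit, 6.2% higher and 0.493% lower, so that 3 of 51 members is close to the background. The count depended on the cells taken: it was 11 of 48 with the stricter cell filter (14.7% of all genes), 10 of 47 with stricter class cuts (16.2%), 9 of 42 without Egr1, Nr4a1 and Myc in the receptor list (17.2%) and 0 of 51 with looser class cuts (1.44%). Hnrnpab had a log2 ratio of 0.75 (ratio 1.54 to 1.84), Srsf7 one of 0.70 and Snrpa1 one of 0.63, and next came Snrpd1 (0.53), Hnrnpdl (0.52) and Srsf2 (0.51). None of the first 3 stayed past 1.5-fold under all 14 alternatives tried. Hnrnpul1, Snrpg, Hnrnpr and Hnrnpl lay between -0.04 and 0.05, with intervals that include equal levels. The SR proteins had the highest median, 0.40, with all 10 compared higher and 9 of 10 with TMM scaling, which moved all genes by -0.13 and left 40 of the 51 members higher. Srsf5 had 373 CPM in receptor-signalled and 346 CPM in quiescent cells, a log2 ratio of 0.11. It was -0.02 with TMM scaling, so its direction is not given.

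The receptor-signalled class also carried RNA of other cells. Its 9 macrophage, monocyte and dendritic markers summed to 1246 CPM, against 177 CPM in quiescent cells, and its 7 B cell markers to 605 CPM, against 239 CPM. After thinning, 31 of its 265 cells had at least 2 such genes, compared with 149 of 2285 quiescent cells and 30 of 277 cycling cells. Genes of dissociation stress, such as Fos and Jun, summed to 5826 CPM in the receptor-signalled cells, 4355 CPM in cycling cells and 4358 CPM in quiescent cells. None of the 9 macrophage, monocyte and dendritic markers and 7 B cell markers was at 0 in receptor-signalled, cycling or quiescent cells. Without the cells that had at least 2 marker genes of another cell type after thinning, 3 of 51 members were at least 1.5-fold apart in receptor-signalled cells (5.11% of all genes), the same 3 as with those cells. In cycling cells 41 of 52 were (41.5% of all genes), which included all 40. At full depth, 67 of the 265 receptor-signalled and 159 of the 277 cycling cells had such genes, and 499 of the 2285 quiescent cells. Without those, 4 of 51 members were past the limit in receptor-signalled cells (4.13% of all genes), 2 of the 3 among them. In cycling cells 38 of 51 were (39.9%), all from the 40.

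**Figure D4:**
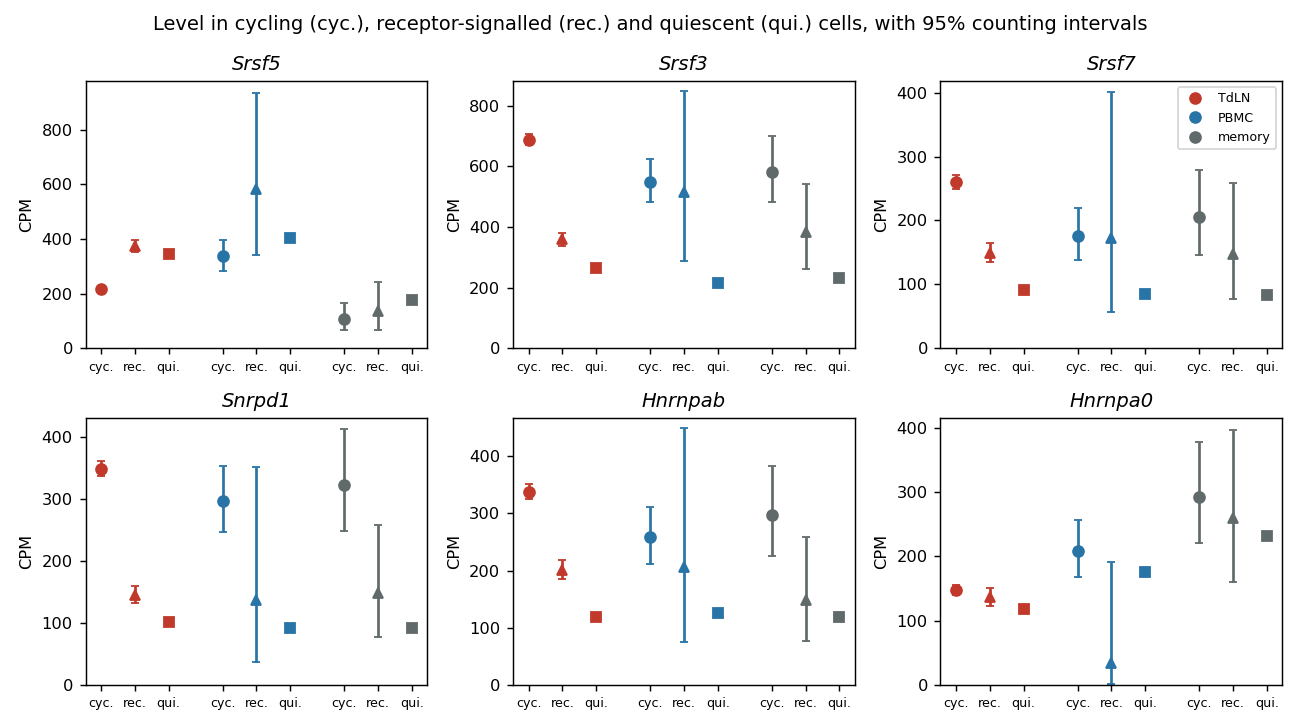
Level of Srsf5, Srsf3, Srsf7, Snrpd1, Hnrnpab and Hnrnpa0 in cycling (circles), receptor-signalled (triangles) and quiescent cells (squares) of TdLN, PBMC and memory, in CPM on linear axes from 0, with exact 95% counting intervals. Srsf3, Srsf7, Snrpd1 and Hnrnpab are highest in cycling cells of each library, Srsf5 is lower in cycling than in quiescent cells, and Hnrnpa0 in quiescent cells is lowest in TdLN (118 CPM) and highest in memory (232 CPM). The receptor-signalled points of PBMC and memory rest on 3 and 9 cells.

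Between whole libraries, TdLN and memory differed most. Of 51 members compared, 45 were higher in TdLN, as were 68.2% of all 4647 genes compared. The median log2 ratio was 0.39 for the members against 0.17 for all genes. Srsf4, counted as higher, reached the minimum for comparison only through TdLN, also in quiescent cells. At least 1.5-fold higher were 13 members and at least 1.5-fold lower was 1, where 12.7% of all genes compared were at least 1.5-fold higher and 5.23% at least 1.5-fold lower, 17.9% in all. TMM scaling moved all genes by -0.14 and left 40 members higher and 7 at least 1.5-fold apart (13.7% of the members, against 16.5% of all genes). The same library-wide shift reached -0.14 for TdLN over PBMC. By role, 4 of 10 SR proteins, 4 of 19 hnRNP genes, 2 of 9 SF3 subunits, 2 of 11 Sm or snRNP genes and U2af1 were at least 1.5-fold higher.

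Hnrnpa1 (ENSMUSG00000046434, chr15:103240432-103246692 on mm10, plus strand) had the highest ratio. It had 375 CPM in TdLN and 244 CPM in PBMC, against 182 CPM in memory. The ratio of TdLN over memory was 2.07 (2.02 to 2.11). In quiescent cells alone it had 329.5 CPM in TdLN, 252 CPM in PBMC and 182 CPM in memory, so the order of the libraries was the same. Srsf5 (ENSMUSG00000021134, chr12:80945504-80950507, plus strand) was next, with 337 CPM in TdLN and 419 CPM in PBMC, against 179.7 CPM in memory. PBMC was the highest library for Srsf5, and both stood apart from memory, at 1.87-fold (1.83 to 1.91) for TdLN and 2.33-fold (2.28 to 2.38) for PBMC. Hnrnpa0 (ENSMUSG00000007836, chr13:58125879-58128556, minus strand), a single-exon relative of the hnRNP A proteins, ran in the opposite order. It had 123 CPM in TdLN, 176 CPM in PBMC and 232 CPM in memory, a log2 ratio of -0.91 for TdLN over memory, and 2.35% of all genes compared had a lower one. Its levels in quiescent cells were 118, 176 and 232 CPM. Those 3 genes stayed at least 1.5-fold apart between TdLN and memory under each of 12 alternatives, and the other 8 members followed past that limit did not.

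Among members of at least 50 CPM, Srsf9 (log2 ratio 0.75), Hnrnpk (0.73), Hnrnpd (0.73) and Srsf2 (0.69) followed in TdLN over memory. Hnrnpk, a poly(C)-binding protein, had 359 CPM in TdLN, 244 CPM in PBMC and 216 CPM in memory. Hnrnpd had 159 CPM in TdLN, 115 CPM in PBMC and 96.1 CPM in memory. Lowest after Hnrnpa0 were Srsf1 at -0.15, with 63.2 CPM in TdLN, 53.6 CPM in PBMC and 69.9 CPM in memory, then Hnrnpul2 (-0.09), Hnrnpa2b1 and Sf3b5 (both -0.05) and Hnrnpr (-0.02). Values that close to 0 changed sign with the cell filter for Hnrnpa2b1, Sf3b5 and Hnrnpr.

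The ratio of TdLN over memory was lower in quiescent cells for most members. With quiescent cells alone, 3 members were at least 1.5-fold apart between TdLN and memory, where 13.6% of all genes compared were, and the median log2 ratio was 0.15 against 0.10 for all genes. Of the 51 members, 48 had a lower ratio in quiescent cells than in all cells, as did 63.8% of all genes compared. The median of this change was -0.19 for the members and -0.04 for all genes. Snrpd1 had a log2 ratio of 0.57 over memory in all cells and 0.14 in quiescent cells, Hnrnpab 0.39 and 0.01, and Srsf7 0.50 and 0.15. Srsf5, at 0.91 and 0.96, and Hnrnpa0, at -0.91 and -0.97, kept their distance. A lower ratio is a larger distance for members below memory, as for Srsf1 (-0.15 and -0.36) and Hnrnpa2b1 (-0.05 and -0.25). Leaving out only the cycling and receptor-signalled cells gave 6 of 51 members (11.8%) past 1.5-fold and a median of 0.22. Of all genes compared, 14.5% were past that limit in this setting.

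**Figure D5:**
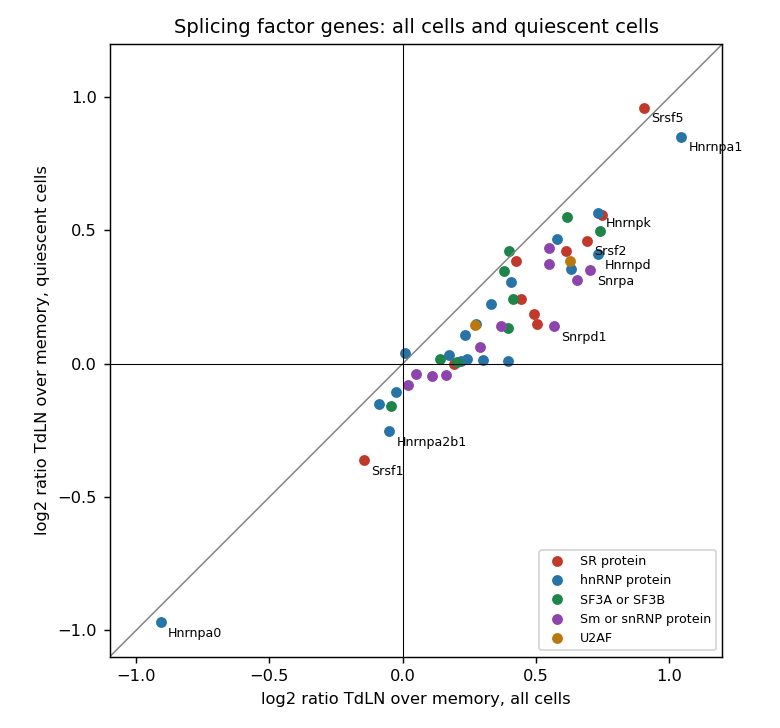
Log2 ratio of TdLN over memory for each of the 51 members compared, in all cells (horizontal axis) and in quiescent cells alone (vertical axis), coloured by role; the diagonal marks equal ratios. Of the points, 48 lie below the diagonal; Srsf5, Hnrnpa1 and Hnrnpa0 lie farthest from 0 on both axes.

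PBMC differed little from memory over these genes. Of 51 members, 32 were higher in PBMC and 19 lower, and the median log2 ratio of 0.05 equalled that of all 4384 genes compared. Of all those genes, 57.2% were higher in PBMC. Srsf4, counted as higher, reached the minimum for comparison only through PBMC. Srsf5 alone was at least 1.5-fold apart, at 1.22, where 8.1% of all genes compared were past that limit, 4.47% higher and 3.63% lower. With ribosomal and mitochondrial counts left out of the totals, 25 members were higher and 26 lower. Next highest were Snrpc, the C protein of the U1 snRNP (0.48), Hnrnpa1 (0.43), Snrpa1 (0.43), U2af1 (0.38) and Sf3b6 (0.31). Lowest were Hnrnpa0 (-0.39), Srsf1 (-0.38), Hnrnpr (-0.33), Srsf2 (-0.29), Hnrnpu (-0.28) and U2af2 (-0.19). In quiescent cells alone Srsf5 was again the only one past 1.5-fold, with 404 CPM in PBMC against 178 CPM in memory, where 8.46% of all genes compared were past it. TdLN over memory and PBMC over memory share the memory library, so their values are set side by side and not correlated.

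TdLN was above PBMC for 45 of 51 members and for 63.8% of all 4606 genes compared. The median log2 ratio was 0.29 for the members against 0.12 for all genes. At least 1.5-fold higher were 6 members, and no member was 1.5-fold lower. Of all genes compared, 14.5% were past that limit, 10.4% higher and 4.17% lower, so that 6 of 51 members (11.8%) is close to the background. Srsf2 led with 229 CPM in TdLN against 116 CPM in PBMC (log2 ratio 0.98), and memory had 142 CPM. Of the members followed over the alternatives, it was the one that stayed past 1.5-fold under each of the 12 alternatives. Srsf9 had 83.6 CPM in TdLN and 49.9 CPM in PBMC, against 49.7 CPM in memory, so PBMC and memory lay within each other's counting intervals. Hnrnph1 (0.65), Hnrnpa1 (0.62), Hnrnpl (0.58) and Snrpd1 (0.56) came next among members of at least 50 CPM. Lower in TdLN were Hnrnpa0 (-0.52), Srsf5 (-0.32), Sf3b6 (-0.11), Hnrnph3 (-0.09), Hnrnpul2 (-0.05) and Sf3b5 (-0.03). TMM scaling left 37 of 51 members higher, with 4 at least 1.5-fold higher and 1 at least 1.5-fold lower. With it, 12.9% of all genes compared were past that limit, 6.3% higher. With quiescent cells alone, 4 members were at least 1.5-fold apart, where 11.1% of all genes compared were.

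A few members were close to absent. Snrpn, the SmN protein made mainly in brain from an imprinted locus, had 0.86 CPM in TdLN (60 UMIs), 4.59 CPM in PBMC (225 UMIs) and 0.80 CPM in memory (56 UMIs). It overlaps Snurf on the same strand, so reads of the pair cannot be told apart in these counts. Srsf12 stayed below 1 CPM in each library, at 0.76, 0.22 and 0.29 CPM in TdLN, PBMC and memory. U2af1l4, a paralogue of U2af1, had 3.77, 2.57 and 1.4 CPM in the same order and overlaps Gm49396 on the same strand. Hnrnpll, which represses the variable exons of Cd45 in T cells, had 11.5 CPM in TdLN and 8.06 CPM in PBMC, against 10.5 CPM in memory. Within TdLN it had 23.2 CPM in cycling cells (20.1 to 26.7) and 9.34 CPM in quiescent cells (8.15 to 10.7), above the level of the comparison only through the cycling cells. Hnrnpm and Snrpa1 also overlap a gene on their own strand (March2 and Gm45213). Processed copies of genes such as Hnrnpa1, Hnrnpa3 and Snrpg are known in the mouse genome, and how reads shared with them were counted is not given in the sources used here.

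The wider spliceosome was split in the same comparison of cycling over quiescent cells of TdLN, in which 63.4% of all genes compared were higher, 30.6% at least 1.5-fold. Of the LSm genes, which form the ring on U6 RNA, all 10 compared were higher and 7 at least 1.5-fold, led by Lsm2 (157 against 51.4 CPM, log2 ratio 1.61), Lsm3 (1.56) and Lsm5 (1.45). Of 15 U1, U5 and tri-snRNP genes compared, 12 were higher and 4 at least 1.5-fold, a share no larger than that of all genes, among them Snrnp25 of the minor spliceosome (1.62) and Snrnp40 of U5 (1.26). Activation and catalytic step factors were higher in 20 of 24 cases, 14 of them at least 1.5-fold, with Phf5a, a small SF3B subunit, at 1.17 and Prpf38a at 1.07. The SR-related proteins and SR kinases had a median of 0.01, with 11 higher and 10 lower. There Luc7l3 was at least 1.5-fold higher (0.79), and Clk1, a kinase that phosphorylates SR proteins, was at least 1.5-fold lower, with 129 CPM in cycling against 232 CPM in quiescent cells (-0.85). Of 29 other splicing regulators, 21 were higher, 11 at least 1.5-fold and 1 at least 1.5-fold lower, with Rbm3, a cold-inducible RNA-binding protein (1.14), Raly (1.12) and Khsrp (1.05) in front. With ribosomal and mitochondrial counts left out of the totals, each of these log2 ratios was lower by 0.32, and 45.4% of all genes compared were higher. Then 9 of 10 LSm genes, 11 of 15 U1, U5 and tri-snRNP genes, 17 of 24 activation and catalytic step factors and 17 of 29 other regulators were still higher, and 19 of the 21 SR-related genes were lower.

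In TdLN over memory, 1 of 9 LSm genes (Lsm3, 0.67), 1 of 15 U1, U5 and tri-snRNP genes (Snrnp40, 0.63) and 1 of 22 activation and catalytic step factors (Phf5a, 0.61) were at least 1.5-fold higher, and none at least 1.5-fold lower. These shares are no larger than the 12.7% of all genes compared. With TMM scaling no gene of these 3 lists passed 1.5-fold, where 8.31% of all genes were at least 1.5-fold higher. Of 21 SR-related proteins and SR kinases, 3 were at least 1.5-fold higher and 1 lower. Tra2b, a splicing activator of the SR type, had 302 CPM in TdLN and 262 CPM in PBMC, against 146 CPM in memory. Clk1 had 221 CPM in TdLN and 137 CPM in PBMC, against 109 CPM in memory. Rsrp1, an arginine- and serine-rich protein, had 181 CPM in TdLN and 337 CPM in PBMC, against 554 CPM in memory, a log2 ratio of -1.62 for TdLN over memory. Among the other regulators 8 of 29 were at least 1.5-fold higher in TdLN than in memory, and 3 with TMM scaling. Rbm3 had 798 CPM in TdLN and 555 CPM in PBMC, against 376 CPM in memory. Elavl1 (HuR), which steadies AU-rich mRNAs, had 87.3, 47.1 and 50.9 CPM in the same order.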

How the data were processed

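UMI counts from 3 libraries, 1 per group, were used. The authors deposited raw UMI counts of genes by cell barcodes, not normalized. Per the submitters' processing notes, Cell Ranger 3.1.0 and mm10 were used. The 3 libraries held 72062695, 49592338 and 72283532 counts (TdLN, PBMC and memory). Counts of kept cells were summed per library and class and given as CPM of 69537836, 48987260 and 70116366 counts. CPM intervals are exact Poisson and ratio intervals exact conditional binomial, from scipy 1.17.1. No test was run. A call is a ratio of at least 1.5-fold among genes with at least 20 CPM and 50 UMIs in the higher group. TMM factors came from edgeR 4.0.16. No doublet caller was run; cells with most UMIs were left out as an alternative. Recovery was tested on simulated data: 200 of 200 genes changed 2-fold were called in each of 5 comparisons, with 10 unchanged genes called in the receptor-signalled one and 0 in the others. The changed genes were drawn from above the minimum in both groups, and only counting noise was simulated. Changed genes near the minimum and spread between cells or libraries were thus not covered.

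The named members are the 6 highest and 6 lowest ratios of each comparison among members of at least 50 CPM, and a panel of roles. Of the wider lists, up to 3 genes each were named. Members named outside the rule, such as the lowest or unmeasured ones, were chosen after their values were seen. Members, lists and comparisons were chosen with earlier results of these data known. Gene coordinates are from GENCODE M21 (GRCm38, the assembly of mm10), which holds all 55 member IDs, and promoters from RefSeq (GRCm38.p6). A tumour-infiltrating library named in the study was not analysed here. Some genes of the lists are not reported here.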

Additional observations from a re-analysis of the deposited data

How the results depend on the processing

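No paired analysis was possible because each group is 1 library. The number of members at least 1.5-fold apart depended on several choices, and the cause was not tested. In brackets is the share of all genes compared that passed the same limit. For TdLN over memory it was 14 of 51 (17.9%). It was 7 with TMM scaling (16.5%), 9 of 30 at a minimum of 100 CPM (19.5%) and 6 with equal weight per cell (15.2%). With the stricter cell filter it was 22 (21.04%). It was 8 without cells holding markers of other types at full depth (15.3%), and 6 without the 5% of cells with most UMIs (14.8%). In quiescent cells it was 3 (13.6%), without cycling and receptor-signalled cells 6 (14.5%) and at 2-fold 1 (6.11%). Each count of 6 is 11.8% of the members, below the share of all genes, while the 22 are 43.1%. For PBMC over memory it was 1 of 51 (8.1%), and 3 of 55 with no minimum (28.3%). For TdLN over PBMC it was 6 of 51 (14.5%). It was 10 of 52 without ribosomal and mitochondrial totals (18.4%), 2 of 30 at 100 CPM (14.8%) and 2 with equal weight (15.9%). With the stricter filter it was 12 (17.8%), and 2 without the deepest cells (12.7%). Without cycling and receptor-signalled cells it was 3 (12.3%), and at 2-fold it was 0 (4.86%). For cycling over quiescent cells it was 40 of 52 (40.7%). It was 23 without ribosomal and mitochondrial totals (42.2%), 24 of 50 without the deepest cells (31.4%) and 15 at 2-fold (17.8%). For receptor-signalled over quiescent cells it was 3 of 51 (6.69%). It was 1 with TMM scaling (5.13%), 6 of 55 with no minimum (25.3%) and 1 of 47 with equal weight (6.31%). With the stricter filter it was 11 of 48 (14.7%), with looser class cuts 0 (1.44%) and with stricter ones 10 of 47 (16.2%). Without Egr1, Nr4a1 and Myc in the list it was 9 of 42 (17.2%), and at 2-fold it was 0 (2.17%). Removing cells with markers of other types after thinning, chosen after seeing the data, gave 14 (17.7%), 1 (8.09%), 7 (14.2%), 41 (41.5%) and 3 (5.11%). Leaving Irf8 out of the receptor list, also chosen then, gave 2 (4.64%). No member past 1.5-fold in a comparison changed direction under the alternatives run for it. Classes under 30 cells limit what PBMC and memory can show.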
